A study of Mus musculus with 16 samples.

Results

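The 10 MHC class I antigen presentation genes are H2-K1, H2-D1, B2m, Tap1, Tap2, Tapbp, Psmb8, Psmb9, Nlrc5 and Erap1. They were taken by symbol from the deposited count table, 10 of 24421 genes. The list used no expression threshold, but it was chosen with earlier results of these data known. Their RNA was measured in 16 libraries of F4/80+ macrophages sorted from mouse muscle, in 4 groups of 4. The study asked how macrophages lacking glutamate dehydrogenase 1 (Glud1), an enzyme that interconverts glutamate and 2-oxoglutarate, differ from wild-type macrophages in undamaged and in damaged muscle. The groups were GLUD1 KO mice with CTX injected muscle (KO CTX), WT mice with CTX injected muscle (WT CTX), GLUD1 KO mice with normal muscle (KO normal) and WT mice with normal muscle (WT normal). CTX is the labels' name for the injected agent, and the damaged muscle was taken when damage was greatest, per the design text. The labels used here do not say which promoter or Cre removes Glud1 or how old the mice were. Nor do they say whether each library came from 1 mouse. The p-values therefore set differences between groups against the spread of libraries within groups, which may be technical variation only.

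MHC class I molecules carry short peptides from inside the cell to its surface, where CD8 T cells read them. Proteasomes cut proteins into peptides, and in cells exposed to interferon the immunoproteasome subunits encoded by Psmb8, Psmb9 and Psmb10 replace the standard catalytic subunits of Psmb5, Psmb6 and Psmb7. The transporter formed by Tap1 and Tap2 moves peptides into the endoplasmic reticulum, the aminopeptidase of Erap1 trims them, and tapasin (Tapbp) helps to load them onto the heavy chain (H2-K1 or H2-D1) bound to beta-2 microglobulin (B2m). Nlrc5 encodes a transactivator that binds class I gene promoters together with factors on their X and Y boxes, and interferon gamma, acting in part through Irf1, is known to raise most of these genes in macrophages.

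Promoter sequence is shown as background, and its part in the levels measured here was not tested. RefSeq promoter windows on GRCm38.p6, the assembly that mm10 names, were found for 8 of the 10 genes, and Tap2 and Nlrc5 had none in the table used. A match to TGACG, the core of an X2 box, followed after 20 bases by ATTGG, a Y box read on the other strand, was present within the 250 bases before the start of H2-K1, H2-D1 and B2m. Both strands were searched, and 25 of 27025 promoters (0.0925%) held this arrangement, among them that of the nonclassical heavy chain H2-M3. The gap and the letters were set by hand, so this share describes rarity and tests nothing. The matches read 5′ to 3′ in the direction of the gene, with the motif letters in capitals. They lay at chr17:34000359-34000388 on the minus strand for H2-K1, at chr17:35262993-35263022 on the plus strand for H2-D1 and at chr2:122147609-122147638 on the plus strand for B2m.
H2-K1: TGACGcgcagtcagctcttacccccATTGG
H2-D1: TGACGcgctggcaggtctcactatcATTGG
B2m: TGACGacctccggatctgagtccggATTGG
Counted from the RefSeq start as base 0, the match ended at base -12 in H2-K1, at base -72 in H2-D1 and at base -49 in B2m. H2-K1 has a second RefSeq start, from which the same match ended at base -26, and its window below is that of the first start.

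The whole 250-base windows of H2-K1 (chr17:34000348-34000597, minus strand) and B2m (chr2:122147437-122147686, plus strand) show these letters beside others linked to inflammatory signalling. Capitals mark the X2 and Y letters, the NF-kB type motif GGGGATTCCC and interferon-type motifs.
H2-K1: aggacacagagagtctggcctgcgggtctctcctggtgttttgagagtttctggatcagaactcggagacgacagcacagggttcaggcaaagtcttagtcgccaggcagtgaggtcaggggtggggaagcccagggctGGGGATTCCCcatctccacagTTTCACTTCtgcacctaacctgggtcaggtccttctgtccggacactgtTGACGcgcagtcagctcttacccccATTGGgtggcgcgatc
B2m: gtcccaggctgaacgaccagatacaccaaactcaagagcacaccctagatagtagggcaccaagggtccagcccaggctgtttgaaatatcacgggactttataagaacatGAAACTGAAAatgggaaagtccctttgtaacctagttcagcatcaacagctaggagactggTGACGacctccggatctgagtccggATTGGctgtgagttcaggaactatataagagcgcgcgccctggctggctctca
GGGGATTCCC occurred in the windows of H2-K1 and H2-D1, and in 22 of 27025 promoters (0.0814%). The interferon-type motif GAANNGAAA occurred, on the other strand as TTTCACTTC, in the same pair of windows and in 1713 promoters (6.34%). The longer GAAANNGAAA occurred in the B2m window and in 821 promoters (3.04%). These are matches of letters set by hand, not measured binding sites. The windows of H2-K1 and H2-D1 are much alike, so their matches are not separate finds. None of these 4 arrangements was found in the windows of Tap1, Psmb9, Psmb8, Tapbp or Erap1. In RefSeq, Tap1 starts at base 34187556 of chromosome 17 on the plus strand and Psmb9 at base 34187330 on the minus strand, so the starts lie 226 bases apart and point away from each other.

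In GENCODE M21 on GRCm38, 7 of the 10 genes lay on chromosome 17, within the mouse MHC. H2-K1 spans 33996017 to 34000347 on the minus strand and H2-D1 35262730 to 35267499 on the plus strand. Psmb9 (34181987 to 34187764, minus), Tap1 (34187553 to 34197225, plus), Psmb8 (34197721 to 34201454, plus) and Tap2 (34203527 to 34216321, plus) are neighbours, and Tapbp lies at 33915899 to 33929292 on the plus strand. B2m is on chromosome 2 (122147686 to 122153083), Nlrc5 on chromosome 8 (94434356 to 94527272) and Erap1 on chromosome 13 (74639568 to 74693201), all on the plus strand. The libraries keep no strand, so reads from the 212 exonic bases that Tap1 and Psmb9 share on opposite strands cannot be told apart. The same holds for 834 bases (11.5%) that Erap1 shares with Cast, and for exonic bases shared with noncoding genes on the other strand: 904 (24.9%) of Tapbp, 498 (14.7%) of Psmb8 and 533 (14.1%) of Tap2. Tapbp also shares 149 bases with Zbtb22 on the same strand. H2-K1 and H2-D1 resemble other class I heavy chains. In 8.8% of the 50-base windows of H2-K1 and 14.3% of those of H2-D1 the sequence occurs in another gene, and in 0.0% of the 100-base windows of H2-K1 and 4.6% of those of H2-D1. Their counts are uncertain by an amount that these shares do not measure, since it depends on the read length and the counting of shared reads.

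Total counts were 21222870 to 22230960 in KO CTX, 19842999 to 23097420 in WT CTX, 17051892 to 22521092 in KO normal and 19352958 to 21903563 in WT normal libraries. Of the 24421 genes 13649 had enough counts to be tested, including all 10 class I genes. Glud1 itself did not differ past the threshold between KO and WT, with a log2 fold change of -0.14 in CTX muscle (adjusted p = 0.936, edgeR) and -0.09 in normal muscle (adjusted p = 0.991, edgeR). Counts over the whole gene therefore do not check the genotype labels. The summed level of 9 macrophage markers was 14800 to 17000 CPM in KO CTX, 15700 to 20400 CPM in WT CTX, 5910 to 8570 CPM in KO normal and 7230 to 9040 CPM in WT normal libraries, where CPM is the count scaled to a common library size with TMM factors. Xist was above 10 CPM, as in females, in KO normal library 5 and WT normal libraries 5 and 6, and at or near 0 in the other 13. WT CTX libraries 1 and 2 stood apart: their chi-square per degree of freedom over genes was 6.33, the lowest of all pairs within a group, against 34.2 to 67.3 when either was set against WT CTX library 3 or 4. KO CTX libraries 3 and 4 were nearly as close, at 7.65, against 21.5 to 30.1 with KO CTX library 1 or 2. WT CTX libraries 1 and 2 still differed by more than sampling noise and were counted as separate libraries. Results that rest on them are given with and without them.

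Per kilobase of exon, the class I genes ran from very abundant to moderate RNAs. In WT normal libraries B2m had the highest mean level, 2475 ± 230 CPM per kb (SD, n = 4), followed by H2-K1 with 663 ± 135 and H2-D1 with 439 ± 47.6 CPM per kb. Tapbp reached 122 ± 9.90, Psmb8 53.7 ± 3.54, Tap2 36.9 ± 2.62 and Tap1 26.1 ± 4.53 CPM per kb. Psmb9 stood at 16.3 ± 2.19, Erap1 at 9.77 ± 0.84 and Nlrc5 at 7.94 ± 2.66 CPM per kb. The last 2 in this order did not differ beyond their spread, and the reads of a gene in a library ranged from 362 for Psmb9 to 60644 for B2m. WT CTX libraries had Erap1 at 15.4 ± 1.11, Tap1 at 14.9 ± 6.15, Psmb9 at 7.95 ± 2.73 and Nlrc5 at 4.37 ± 1.63 CPM per kb, so that Erap1 and Tap1 lay at the same level there, within the spread of Tap1.

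**Figure D1:**
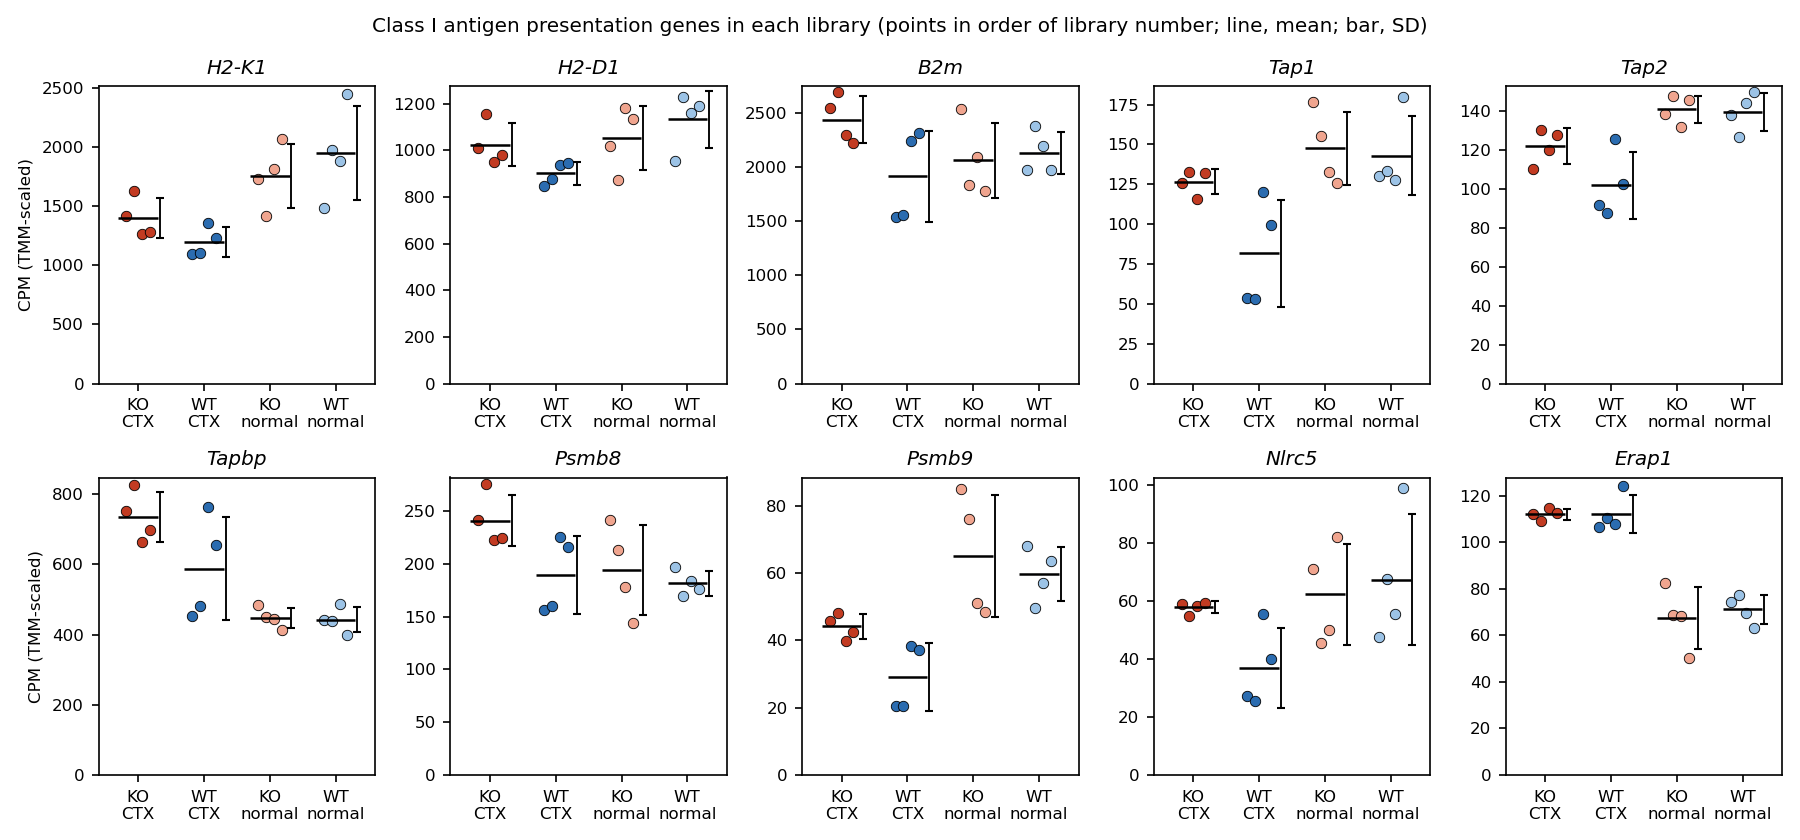
CPM of each class I gene in the 16 libraries (points, in order of library number within a group; line, mean; bar, SD, n = 4 per group), with KO CTX, WT CTX, KO normal and WT normal from left to right. Erap1 and Tapbp are higher in CTX than in normal muscle, Psmb9 is lower, and WT CTX libraries 1 and 2 lie below libraries 3 and 4 for every gene but Erap1.

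After CTX injection the class I genes did not move as one block. In WT macrophages 6 of the 10 were lower in CTX than in normal muscle: both heavy chains, both TAP subunits, Psmb9 and Nlrc5. Erap1 and Tapbp were higher, and B2m and Psmb8 did not pass the test. In KO macrophages only Psmb9 fell, Erap1 and Tapbp rose, and 7 genes did not pass. These counts are read against a response that reached most of the transcriptome, since 33.3% of all tested genes rose and 39.4% fell in WT, and 33.3% rose and 40.2% fell in KO. The median log2 fold change of the 10 genes was -0.39 in WT, against -0.15 over all tested genes, and -0.07 in KO, against -0.16. Fewer cells of a type and less RNA per cell cannot be told apart in such bulk samples.

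Of the classical heavy chains, H2-K1 fell in WT. It had 1420, 1632, 1263 and 1284 CPM in KO CTX libraries 1 to 4, against 1730, 1415, 1811 and 2066 CPM in KO normal libraries 1, 2, 3 and 5. WT CTX libraries 1 to 4 had 1091, 1107, 1355 and 1234 CPM, against 1484, 1977, 1881 and 2447 CPM in WT normal libraries 2, 3, 5 and 6. Every WT CTX library lay below every WT normal library, whereas in KO the highest CTX library overtook the lowest normal one. The log2 fold change was -0.70 ± 0.16 (SE; adjusted p = 0.000797, edgeR) in WT and -0.33 ± 0.16 (adjusted p = 0.0688, edgeR) in KO. In KO the call depended on the processing: H2-K1 passed with DESeq2 (-0.355, adjusted p = 0.0312) and without KO normal library 2 (-0.41, adjusted p = 0.0301, edgeR).

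H2-D1, the other classical heavy chain, changed less. It had 1010, 1156, 951 and 980 CPM in KO CTX libraries, against 1018, 874, 1180 and 1136 CPM in KO normal libraries. WT CTX libraries had 846, 876, 939 and 944 CPM, against 954, 1228, 1160 and 1190 CPM in WT normal libraries. The WT groups did not overlap, though the highest CTX and the lowest normal library nearly touched, and the KO groups overlapped widely. In WT the log2 fold change was -0.33 ± 0.12 (adjusted p = 0.0198, edgeR), and the call was lost with no filter on low counts (-0.30, adjusted p = 0.0601), in male libraries only (-0.28, adjusted p = 0.109) and without WT CTX library 1 (-0.30, adjusted p = 0.0591). Without WT CTX libraries 1 and 2 it was -0.26 (adjusted p = 0.162, edgeR). In KO it was -0.04 ± 0.12 (adjusted p = 0.776, edgeR). Within each library, the ratio of H2-K1 to H2-D1 reads, which needs no scaling between libraries, was 1.31 to 1.41 in KO CTX against 1.53 to 1.82 in KO normal, and 1.26 to 1.44 in WT CTX against 1.56 to 2.06 in WT normal. The exact two-sided permutation p was 0.0286 in each genotype, the smallest that 4 against 4 libraries allow, and 0.0616 after adjustment over the 28 ratio tests made.

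B2m, the light chain shared by all class I molecules, did not pass the test in either genotype. KO CTX libraries had 2542, 2687, 2298 and 2221 CPM, against 2538, 1836, 2094 and 1777 CPM in KO normal libraries. In WT the CTX libraries had 1539, 1557, 2242 and 2312 CPM, against 1968, 2380, 2194 and 1973 CPM in WT normal libraries. Both pairs of groups overlapped, and WT CTX split into 2 low libraries (1 and 2) and 2 that lay among the normal ones. The log2 fold change was 0.24 ± 0.16 in KO (95% interval -0.09 to 0.58; adjusted p = 0.177, edgeR) and -0.155 ± 0.16 in WT (-0.49 to 0.18; adjusted p = 0.387, edgeR). The WT value turned to 0.10 without WT CTX libraries 1 and 2, an alternative chosen after seeing the data. With library totals alone B2m was called lower in both genotypes, at -0.766 in WT (adjusted p = 0.000261, edgeR) and -0.373 in KO (adjusted p = 0.0346, edgeR). That scaling moved the median of all genes to -0.77 in each genotype.

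Of the peptide transporter, Tap1 fell in WT. It had 126, 132.9, 116 and 132 CPM in KO CTX libraries, against 177, 155, 133 and 126 CPM in KO normal libraries. In WT there were 53.5, 53.3, 120.4 and 99.1 CPM in CTX libraries, against 130.4, 134, 128 and 180 CPM in WT normal libraries. All WT CTX libraries lay below all WT normal libraries, with libraries 1 and 2 at less than the level of any other of the 16, and the KO groups overlapped. The log2 fold change was -0.81 ± 0.22 in WT (adjusted p = 0.00381, edgeR), or 0.571 times the normal level, and -0.22 ± 0.22 in KO (adjusted p = 0.374, edgeR). Without WT CTX libraries 1 and 2 the WT value was -0.37 (adjusted p = 0.0675, edgeR).

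Tap2, the partner subunit, moved less and more evenly. KO CTX libraries had 110, 130, 120 and 128 CPM, against 139, 147, 132 and 145 CPM in KO normal libraries. The WT CTX values were 91.5, 87.3, 126 and 103 CPM, against 138, 127, 144 and 150 CPM in WT normal libraries. In both genotypes the highest CTX library stayed just below the lowest normal one. The test was passed in WT (-0.46 ± 0.11, adjusted p = 0.0013, edgeR; -0.28 with adjusted p = 0.0503 without WT CTX libraries 1 and 2) but not in KO (-0.21 ± 0.11, adjusted p = 0.0925, edgeR). In KO it was passed with a filter of 5 CPM in 4 libraries (-0.38, adjusted p = 0.00504, edgeR).

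Tapbp, which encodes the loading chaperone tapasin, went the other way. KO CTX libraries had 753, 826, 664 and 699 CPM, against 485, 449.5, 444 and 413 CPM in KO normal libraries. Tapbp read 452, 481, 763 and 657 CPM in WT CTX libraries, against 442, 439.6, 488 and 400 CPM in WT normal libraries. The KO groups were fully separate, while WT CTX libraries 1 and 2 lay among the normal libraries and only 3 and 4 stood above them. Tapbp rose by 0.72 ± 0.15 on the log2 scale in KO (adjusted p = 0.000387, edgeR), or 1.64-fold, and by 0.41 ± 0.15 in WT (adjusted p = 0.0188, edgeR). The WT call was lost without WT CTX library 3 (0.27, adjusted p = 0.0894), without WT CTX library 4 (0.36, adjusted p = 0.0567) and without WT normal library 6 (0.35, adjusted p = 0.0718), and it was kept at 0.69 without WT CTX libraries 1 and 2. Scaling by library totals alone, without TMM factors, moved the median of all genes to -0.77 in each genotype. Tapbp then stood at 0.10 in KO and -0.21 in WT, neither past the threshold, though still above that median. Zbtb22, whose exons it touches on the same strand, rose by 0.81 in KO and by 1.09 in WT (edgeR).

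The immunoproteasome subunits took different paths. Psmb9, encoding the beta-1i subunit, had 45.8, 48.2, 39.8 and 42.6 CPM in KO CTX libraries, against 85.0, 75.9, 51.0 and 48.4 CPM in KO normal libraries. It had 20.5, 20.5, 38.4 and 37.1 CPM in WT CTX libraries, against 68.0, 49.7, 57.0 and 63.7 CPM in WT normal libraries. Neither genotype had overlapping groups, but in KO the highest CTX library nearly touched the lowest normal one. Psmb9 fell by 1.03 ± 0.22 on the log2 scale in WT (adjusted p = 0.000532, edgeR), to 0.488 times the normal level, and by 0.56 ± 0.22 in KO (adjusted p = 0.0278, edgeR). The WT call held without WT CTX libraries 1 and 2 (-0.65, adjusted p = 0.0149, edgeR). The KO call was lost without KO CTX library 3 (-0.51, adjusted p = 0.0703), KO CTX library 4 (-0.54, adjusted p = 0.0581), KO normal library 1 (-0.40, adjusted p = 0.119) or KO normal library 2 (-0.48, adjusted p = 0.0828).

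Psmb8, encoding the beta-5i subunit, did not pass in either genotype. KO CTX libraries had 242, 275, 223 and 224 CPM, against 242, 213, 178 and 144 CPM in KO normal libraries. WT CTX libraries had 156, 159.8, 226 and 216 CPM, against 197, 169, 184 and 176 CPM in WT normal libraries. The WT CTX libraries fell on both sides of the normal ones, 1 and 2 below and 3 and 4 above. With library totals alone Psmb8 was called lower in WT (-0.562, adjusted p = 0.00654, edgeR) but not in KO (-0.31, adjusted p = 0.104, edgeR). The values that follow use TMM factors. The log2 fold change was 0.31 ± 0.16 in KO (95% interval -0.02 to 0.64; adjusted p = 0.0806, edgeR), past the threshold without KO normal library 1 (0.44, adjusted p = 0.0268), and 0.06 ± 0.16 in WT (-0.27 to 0.39; adjusted p = 0.739, edgeR).

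Set against the standard subunits they replace, the immunoproteasome genes lost ground in CTX muscle in every library. Psmb5, Psmb6 and Psmb7 rose by 2.104, 2.17 and 1.71 on the log2 scale in WT and by 1.97, 2.19 and 1.74 in KO (edgeR, adjusted p at most 1.45e-09 in WT). The ratio of Psmb9 to Psmb6 reads was 0.139 to 0.158 in KO CTX against 0.743 to 1.25 in KO normal libraries, a log2 difference of -2.71. In WT it was 0.0723 to 0.128 in CTX against 0.693 to 1.14 in normal libraries, a difference of -3.26. The ratio of Psmb8 to Psmb5 reads was 2.60 to 2.70 in KO CTX against 7.37 to 9.90 in KO normal, and 1.71 to 2.59 in WT CTX against 7.83 to 10.2 in WT normal libraries. Psmb10, the third immunoproteasome subunit, rose by 1.03 in KO (adjusted p = 9.78e-06, edgeR) and by 0.72 in WT (adjusted p = 0.000314, edgeR), yet its ratio to Psmb7 was also lower, at 1.02 to 1.16 in KO CTX against 1.51 to 2.13 in KO normal and 0.769 to 0.957 in WT CTX against 1.49 to 1.88 in WT normal libraries. In each of these 6 comparisons the groups did not overlap, with an exact two-sided permutation p of 0.0286 and 0.0616 after adjustment over the 28 ratio tests. The pairs were chosen after values of the genes had been seen, ratios of reads are not ratios of molecules because the genes differ in length, and a ratio shows unequal change without saying which gene changed.

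**Figure D2:**
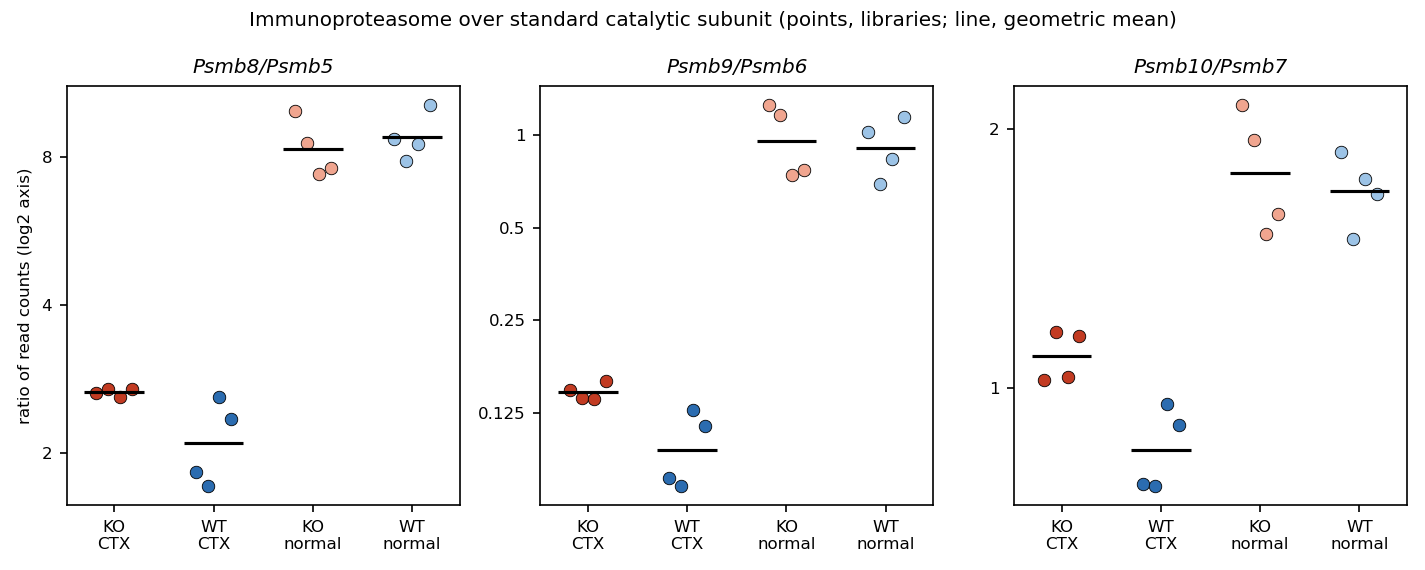
Read-count ratio of each immunoproteasome subunit to the standard subunit it replaces, in every library (points; line, geometric mean; log2 axis; n = 4 per group). CTX libraries lie below normal libraries for all 3 pairs, and KO CTX lies above WT CTX, by less than a log2 unit.

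Erap1, the trimming aminopeptidase, rose in both genotypes. KO CTX libraries had 112, 109, 115 and 113 CPM, against 82.7, 68.7, 68.5 and 50.4 CPM in KO normal libraries. WT CTX libraries had 107, 110.5, 108 and 124 CPM, against 74.2, 77.4, 69.7 and 63.3 CPM in WT normal libraries. Every CTX library stood above every normal library, and WT CTX libraries 1 and 2 did not stand apart. The log2 fold change was 0.73 ± 0.12 in KO (adjusted p = 4.4e-05, edgeR) and 0.66 ± 0.12 in WT (adjusted p = 0.00012, edgeR), or 1.66-fold in KO and 1.58-fold in WT. With library totals alone these were 0.115 in KO and 0.04 in WT, not past the threshold but above the median of all genes under that scaling. Cast, whose exons overlap on the other strand, had 0.10 in KO and 0.13 in WT, neither called.

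Nlrc5, the class I transactivator, fell in WT and varied widely between libraries. KO CTX libraries were tight at 59.0, 55.0, 58.2 and 59.5 CPM, against 71.3, 45.7, 50.2 and 82.2 CPM in KO normal libraries. WT CTX libraries had 27.3, 25.6, 55.4 and 40.1 CPM, against 47.5, 67.6, 55.6 and 98.9 CPM in WT normal libraries. WT CTX library 3 lay inside the normal range, libraries 1 and 2 lay well below it, and in KO the CTX libraries lay within the normal range. Nlrc5 fell by 0.86 ± 0.26 on the log2 scale in WT (adjusted p = 0.00653, edgeR), and the KO value was -0.105 ± 0.25 (adjusted p = 0.716, edgeR). The WT call was lost in male libraries only (-0.64, adjusted p = 0.0551, edgeR) and without WT CTX libraries 1 and 2 (-0.49, adjusted p = 0.131, edgeR).

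WT CTX libraries 1 and 2 carried much of the WT response. Both lay below libraries 3 and 4 for 9 of the 10 genes, Erap1 being the exception, and the lowest WT CTX value was in library 1 for 6 genes and in library 2 for 4. Without both libraries, which were left out together after the data had been seen, the 6 genes that fell became 2, H2-K1 (-0.58, adjusted p = 0.0227, edgeR) and Psmb9. Tapbp and Erap1 were still called up. Of all 14204 genes tested in that fit, which leaves 2 libraries in WT CTX, 4121 rose and 4753 fell. Stat2, a signal transducer of type I interferons picked after its values had been seen, showed the same split. KO CTX libraries had 61.9 to 74.6 CPM, against 30.3, 27.3, 53.2 and 53.5 CPM in WT CTX libraries 1 to 4. Not every gene of interferon signalling did so, and Irf2 and Ifngr1 did not. The nonclassical heavy chain H2-T23, a ligand of NKG2A receptors, had 204 to 258 CPM in the KO CTX libraries, against 117, 119, 202 and 183 CPM in the 4 WT CTX libraries. Leaving out the pair of low libraries has no value for KO, since both are WT.

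**Figure D3:**
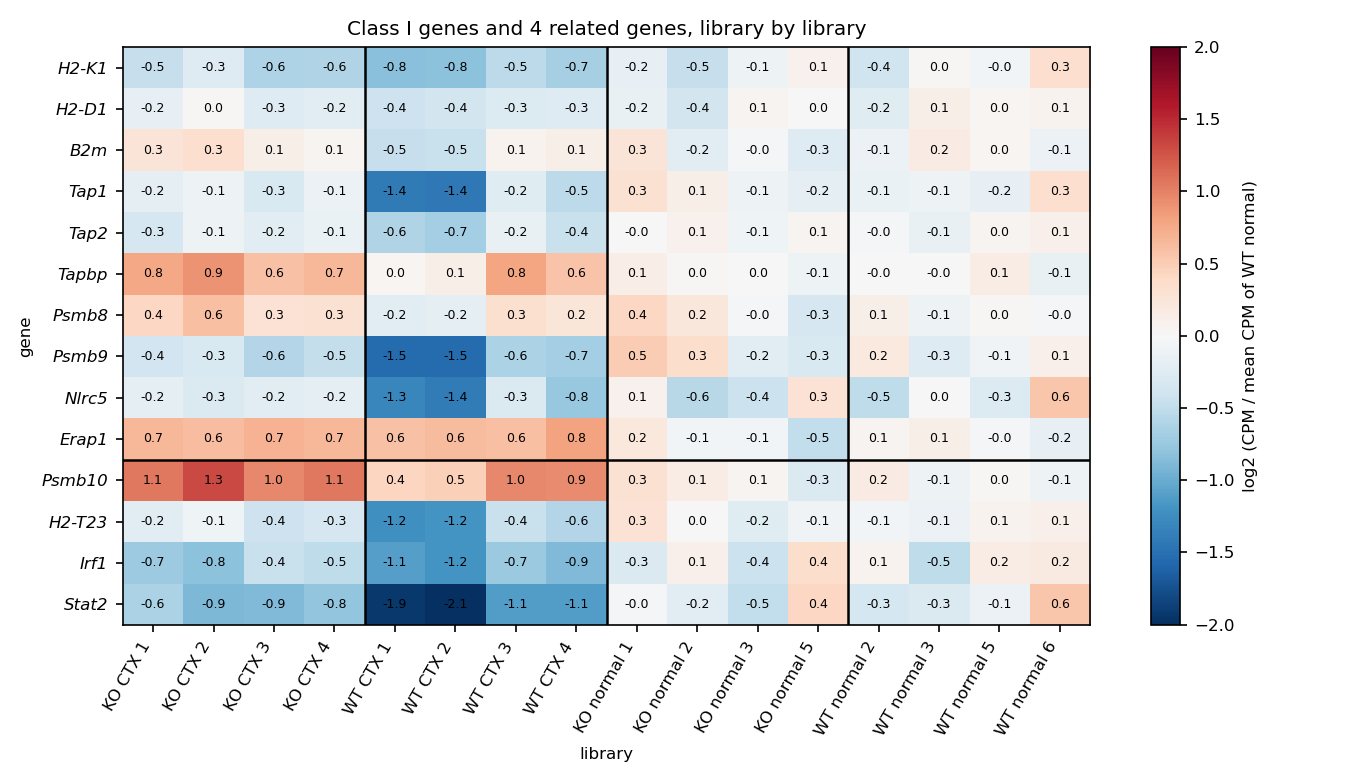
Log2 of CPM over the mean CPM of WT normal for the 10 class I genes and for Psmb10, H2-T23, Irf1 and Stat2 (rows) in the 16 libraries (columns); blue is below and red above the WT normal mean. WT CTX libraries 1 and 2 are deep blue for Tap1, Psmb9, Nlrc5, H2-T23, Irf1 and Stat2, paler blue for H2-K1, H2-D1, B2m, Tap2 and Psmb8, near white for Tapbp and red for Erap1 and Psmb10.

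KO against WT in CTX muscle asks whether Glud1 deficiency changed class I expression in damaged muscle. None of the 10 genes passed the adjusted threshold with edgeR, where 1 of 13649 genes (0.00733%) did, and none passed with DESeq2. The fold changes leaned one way: 9 of 10 were positive, with a median log2 fold change of 0.34 against -0.02 over all genes. At an unadjusted p under 0.05, 7 of the 10 were higher in KO, against 3.09% of all tested genes. All KO CTX libraries lay above all WT CTX libraries for H2-D1 and Psmb9, 2 of the 10, against 1.83% of all genes.

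Nlrc5 had the highest value, 57.9 ± 2.01 CPM in KO CTX and 37.1 ± 13.8 CPM in WT CTX (SD, n = 4 each), a log2 fold change of 0.64 (95% interval 0.10 to 1.19; adjusted p = 0.665, edgeR). Tap1 averaged 127 ± 7.99 CPM in KO CTX and 81.6 ± 33.7 CPM in WT CTX, with 0.64 (0.17 to 1.10; adjusted p = 0.58, edgeR). Psmb9 averaged 44.1 ± 3.68 CPM in KO CTX and 29.1 ± 9.97 CPM in WT CTX, with 0.60 (0.14 to 1.07; adjusted p = 0.603, edgeR). In these 3 genes the spread of WT CTX was several times that of KO CTX, and libraries 1 and 2 were the lowest of WT CTX. For Nlrc5, WT CTX libraries 3 and 4 also lay apart, at 55.4 and 40.1 CPM. B2m (0.35), Psmb8 (0.35), Tapbp (0.32), Tap2 (0.26), H2-K1 (0.23) and H2-D1 (0.18) followed, with adjusted p of 0.682 to 0.917 (edgeR). Erap1 lay at 0.00 (-0.25 to 0.25), an interval that excludes a difference of the size seen for its own response to CTX.

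In CTX muscle limma voom with sample quality weights called 3 genes higher in KO, where it called 0.484% of all tested genes higher: Tap1 (0.91, adjusted p = 0.0342), Psmb9 (0.82, adjusted p = 0.0366) and Nlrc5 (0.88, adjusted p = 0.0372). It gave WT CTX libraries 1 and 2 weights of 2.19 and 1.86, against 0.85 and 1.07 for libraries 3 and 4. limma voom without these weights, added after seeing the data, called none of the 10 and 0.00733% of all genes higher, with Tap1 at 0.73 (adjusted p = 0.776), Psmb9 at 0.67 (adjusted p = 0.776) and Nlrc5 at 0.72 (adjusted p = 0.846). Without WT CTX libraries 1 and 2 the median fell to 0.12 and none of the 10 had an unadjusted p under 0.05, with Tap1 at 0.21, Psmb9 at 0.23 and Nlrc5 at 0.28. The within-library ratios of Psmb8 to Psmb5, Psmb9 to Psmb6 and Psmb10 to Psmb7 were higher in all KO CTX than in all WT CTX libraries, by 0.35, 0.63 and 0.36 on the log2 scale. The exact two-sided permutation p was 0.0286 for each, and 0.0616 after adjustment over the 28 tests. Without WT CTX libraries 1 and 2 these differences were 0.11, 0.28 and 0.23. Leaving libraries out cannot create overlap, so its absence there adds nothing. For Psmb8 to Psmb5 the lowest KO CTX ratio was 2.60 and the highest WT CTX ratio 2.59. The ratios of H2-K1 to B2m, H2-D1 to B2m, H2-K1 to H2-D1 and Tap1 to Tap2 overlapped between KO CTX and WT CTX, with differences of -0.15, -0.19, 0.04 and 0.455 (exact permutation p of 0.0571 to 0.4). Without WT CTX library 1 alone, or library 2 alone, the number at an unadjusted p under 0.05 was 1 of 10, against 7 with all libraries. The share of all genes at that p was counted only with all libraries.

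In normal muscle no class I gene differed between KO and WT past the threshold (0 of 10; 0% of all genes), with edgeR, DESeq2 or limma voom. At an unadjusted p under 0.05 there was also none of the 10, against 2.86% of all genes. With the replicate block, whose numbers were taken to pair these libraries, Erap1 was under it (-0.25, unadjusted p = 0.0226, adjusted p = 0.762, edgeR). The log2 fold changes ran from -0.15 for H2-K1 (95% interval -0.48 to 0.18) to 0.13 for Psmb9 (-0.33 to 0.58), with a median of -0.02. H2-K1 averaged 1756 ± 269 CPM in KO normal and 1947 ± 395 CPM in WT normal libraries (SD, n = 4 each), and Psmb9 averaged 65.1 ± 18.2 CPM in KO normal and 59.6 ± 8.01 CPM in WT normal libraries. Tap2 had the smallest SE of the 10, and its interval was -0.21 to 0.24. For Nlrc5 it reached from -0.65 to 0.42.

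The difference between the genotype effects in CTX and in normal muscle was tested directly. No class I gene passed the adjusted threshold (0 of 10; 0% of all genes with edgeR), and none had an unadjusted p under 0.05, against 1.58% of all genes with a positive difference at that p. That number depended on the fit: 3 of 10 were under 0.05 with the replicate block (B2m, Psmb9 and Nlrc5), 6 with weighted and 2 with unweighted limma voom. It was 4 without WT CTX library 3 (Tap1, Tap2, Tapbp and Nlrc5). None of these genes passed the adjusted threshold (adjusted p at least 0.245). The number was 2 with library totals, 1 with DESeq2 or with no filter, 0 with male libraries only, and 0 to 4 when 1 library was left out. The share of all genes at that p was not counted for these fits, so the counts are not read as a result about the 10 genes. All 10 values were positive, with a median of 0.34 against -0.01 over all genes, and those of Nlrc5 (0.76, 95% interval 0.00 to 1.52) and Tap1 (0.59, -0.07 to 1.25) were the largest, each with an adjusted p of 1 (edgeR). The 10 genes share the same 16 libraries and are not independent of one another. The larger number of falls in WT than in KO after CTX is therefore not shown to be a difference between genotypes, and without WT CTX libraries 1 and 2 the median of this difference was 0.12.

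**Figure D4:**
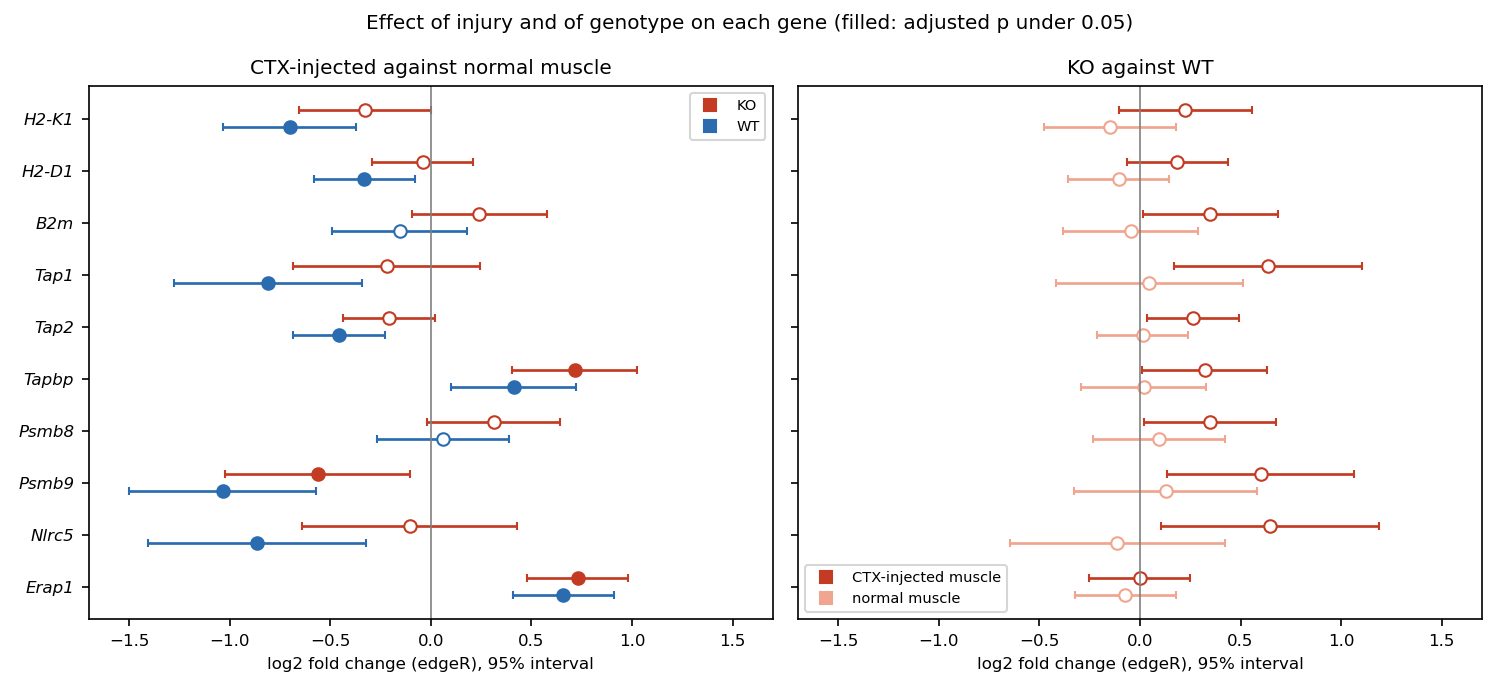
Log2 fold change of each class I gene with its 95% interval (edgeR): left, CTX against normal muscle in KO and WT; right, KO against WT in CTX and in normal muscle; filled points have an adjusted p under 0.05. On the left 8 WT and 3 KO points are filled, and on the right none is, although 9 of the 10 CTX points lie above 0.

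The rest of the pathway was described with 7 lists of other genes. Of all tested genes, 33.3% rose with CTX in each genotype, the share to set beside the rises below. Standard proteasome core genes all rose with CTX, 14 of 14 in each genotype, with a median log2 fold change of 1.598 in KO and 1.56 in WT. Psmb5 averaged 90.4 ± 8.47 CPM in KO CTX and 23.1 ± 2.85 CPM in KO normal, and Psmb6 averaged 303 ± 32.3 CPM in KO CTX and 66.4 ± 2.62 CPM in KO normal (SD, n = 4 each). Of the partners of the immunoproteasome, 4 of 4 rose in each genotype (median 0.99 in KO, 0.75 in WT). They include Psme2, a subunit of the PA28 activator (143 ± 9.05 CPM in KO CTX, 74.9 ± 16.5 CPM in KO normal), and Pomp, the proteasome assembly factor (156 ± 12.6 CPM in KO CTX, 75.2 ± 14 CPM in KO normal). Cytosolic peptidases, which destroy or trim peptides before transport, rose in 6 of 6 tested (median 0.74 in KO, 0.75 in WT), among them Npepps (1.44 in KO, 1.39 in WT) and Lap3 (0.82 in KO, 0.86 in WT).

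Endoplasmic reticulum genes for folding and loading rose in 8 of 9 in each genotype (median 0.79 in KO, 0.85 in WT), against 33.3% of all tested genes. Calr, the chaperone calreticulin of the loading complex, averaged 1615 ± 144 CPM in KO CTX and 529.7 ± 23.8 CPM in KO normal, and 1620 ± 195 CPM in WT CTX and 567 ± 54.2 CPM in WT normal libraries. Sec61a1, of the translocation channel, rose by 1.47 in KO and by 1.68 in WT (edgeR). The exception was Tapbpl, encoding the tapasin-like peptide editor TAPBPR, which fell by 0.88 in KO (adjusted p = 4.61e-05, edgeR) and by 0.92 in WT (adjusted p = 2.97e-05, edgeR), opposite to Tapbp. With library totals alone, the median of all tested genes moved to -0.77 in each genotype, from -0.16 in KO and -0.15 in WT. The rises of these lists were not recounted under that scaling.

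Nonclassical and class I-like heavy chains mostly fell. Of 25 listed, 14 had enough counts to be tested, of which 9 fell and 1 rose in KO (median -1.29) and 11 fell and none rose in WT (median -1.66), where 40.2% of all tested genes fell and 33.3% rose in KO, and 39.4% fell and 33.3% rose in WT. Hfe, a regulator of iron uptake, averaged 23.1 ± 2.02 CPM in KO CTX and 106 ± 20.9 CPM in KO normal, and 23.2 ± 2.59 CPM in WT CTX and 101 ± 26.2 CPM in WT normal libraries. Fcgrt, the neonatal Fc receptor that recycles IgG, averaged 66.2 ± 18.7 CPM in KO CTX and 359 ± 53.1 CPM in KO normal, and 72.2 ± 21.5 CPM in WT CTX and 461 ± 147 CPM in WT normal libraries. The single rise was H2-Q10, a low transcript with 4.77 ± 1.56 CPM in KO CTX and 2.46 ± 1.95 CPM in KO normal libraries, whose groups overlapped (0.96, adjusted p = 0.0496, edgeR).

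Of 25 regulators of class I, genes of interferon signalling and of the class I enhanceosome, 8 rose and 9 fell in each genotype (median -0.03 in KO, -0.04 in WT), shares near those over all tested genes (33.3% up in each genotype, 40.2% down in KO and 39.4% down in WT). Among those that rose were the type I interferon receptor chains Ifnar1 (1.55 in KO, 1.43 in WT) and Ifnar2 (1.22 in KO, 1.29 in WT) and Nfyc, a subunit of the Y-box factor NF-Y (0.79 in KO, 0.84 in WT). Those that fell included Ifngr1, the interferon gamma receptor chain (-1.03 in KO, -0.81 in WT), Irf2 (-1.02 in KO, -1.22 in WT), and Irf1 (-0.59 in KO, -0.97 in WT). Ciita, the class II transactivator related to Nlrc5, was nearly lost: 2.34 ± 1.29 CPM in KO CTX and 160.2 ± 73.4 CPM in KO normal, and 4.88 ± 2.08 CPM in WT CTX and 145 ± 50.1 CPM in WT normal libraries. Reads of Ifng, the main known inducer of this pathway, numbered 1 in KO CTX library 1 and 0 in the other 7 CTX libraries, against 44, 45, 40 and 5 in KO normal and 23, 21, 30 and 25 in WT normal libraries.

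Of 7 genes of cross-presentation, the route by which material taken up reaches class I, 3 rose and 3 fell in each genotype (median -0.21 in KO, -0.20 in WT), also near the shares over all genes. Sec22b, a vesicle fusion protein, rose by 0.93 in KO and by 1.04 in WT, and Ncf4, a subunit of the phagocyte oxidase, by 1.17 in KO and by 1.50 in WT. Batf3, a transcription factor of cross-presenting dendritic cells, fell to 1.22 ± 0.39 CPM in KO CTX, against 22.5 ± 9.27 CPM in KO normal, and to 1.51 ± 0.26 CPM in WT CTX, against 21.8 ± 6.01 CPM in WT normal libraries. Wdfy4, needed for cross-presentation by these cells, fell by 0.70 in KO and by 0.40 in WT (edgeR). No gene of the 7 lists was called in either KO to WT comparison or in the difference between them.

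**Figure D5:**
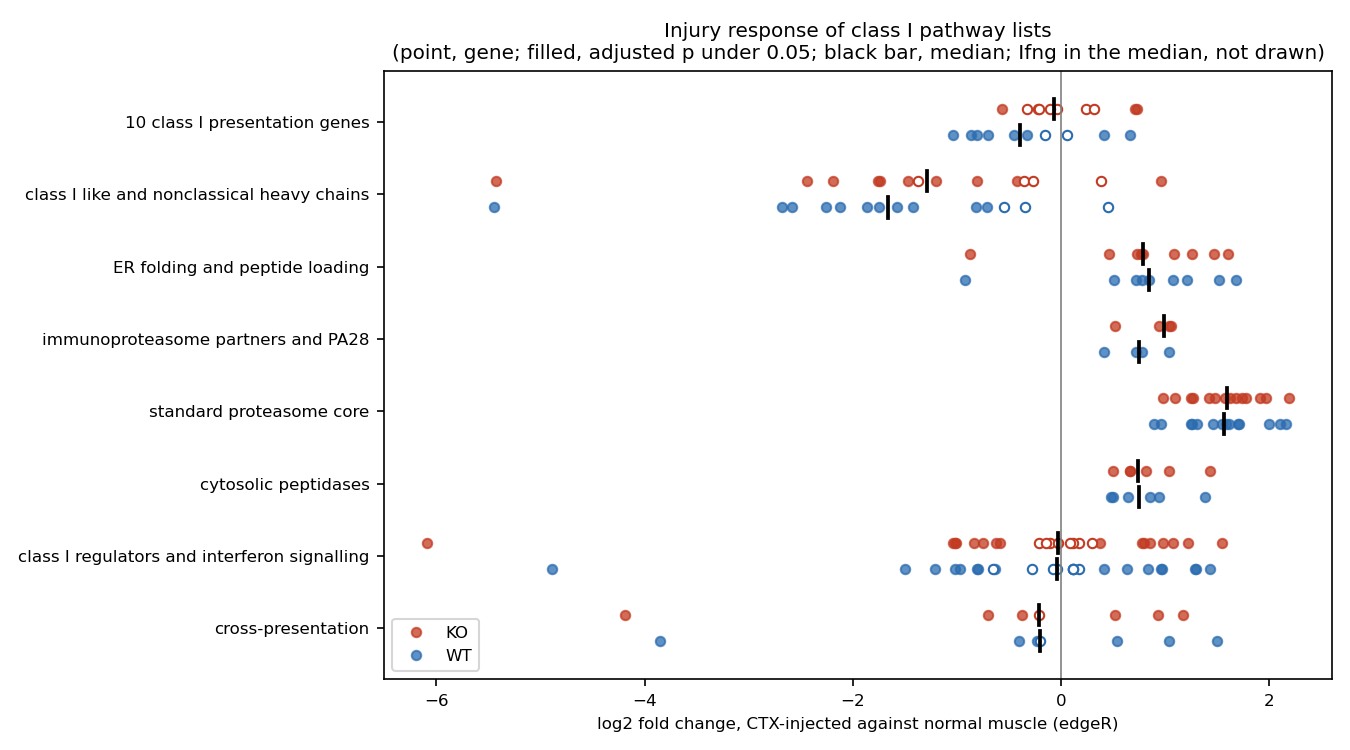
Log2 fold change of CTX against normal muscle for the 10 class I genes and the 7 lists of pathway genes in KO and WT (point, gene; filled, adjusted p under 0.05, edgeR; black bar, median; Ifng counts in the median and is not drawn). Proteasome and peptidase genes lie above 0, endoplasmic reticulum genes mostly above 0 with Tapbpl below it, class I-like heavy chains mostly below 0, and the 10 class I genes between -1.03 and 0.73.

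Markers of other cells moved with the CTX comparison. The 12 T and NK cell markers summed to 5.03 to 13.2 CPM in KO CTX and 2.26 to 9.46 CPM in WT CTX, against 142 to 337 CPM in KO normal and 86.9 to 207 CPM in WT normal libraries, with Ncr1 at 0 in WT CTX. The 8 dendritic cell markers summed to 55.1 to 89.4 CPM in KO CTX and 77.0 to 99.3 CPM in WT CTX, against 520 to 818 CPM in KO normal and 425 to 607 CPM in WT normal libraries. The 5 B cell markers summed to at most 9.40 CPM in CTX and 11.8 to 42.3 CPM in normal libraries, with Pax5 at 0 in CTX. Endothelial markers summed to 65.0 to 85.4 CPM in CTX and 133 to 245 CPM in normal libraries, fibroblast markers to 54.3 to 99.9 CPM in CTX and 185 to 888 CPM in normal libraries, and muscle fibre markers to 2.58 to 5.10 CPM in CTX and 11.3 to 39.2 CPM in normal libraries. Neutrophil markers ran from 210 to 913 CPM in CTX and from 182 to 4700 CPM in normal libraries. The part of these cells in the lower H2-K1, H2-D1, Tap1, Tap2, Psmb9, Nlrc5 and Ciita of CTX libraries was not tested. Between KO and WT in CTX muscle the T and NK cell, dendritic cell and endothelial sums overlapped, while the fibroblast sum was 54.3 to 68.8 CPM in KO CTX and 76.0 to 99.9 CPM in WT CTX. The neutrophil sum was 787, 621, 300 and 913 CPM in KO CTX libraries 1 to 4, against 210, 405, 464 and 349 CPM in WT CTX libraries 1 to 4, so that 3 of the 4 KO libraries lay above every WT library. The part of these cells in the KO to WT differences was not tested.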

How the data were processed

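Per the labels' protocols, F4/80+ cells were sorted from muscle and their RNA was amplified with SMART-Seq V4, which copies full-length cDNA without regard to strand. The values the authors deposited are raw counts, 1 whole number per gene symbol and library. Reads were handled with HISAT2 2.1.0, cutadapt 1.18, FastQC 0.11.7 and featureCounts (Subread 1.6.2) on build mm10, per the submitters' processing notes. The sources used here do not name the gene annotation or the handling of reads that map to several places. Amplified reads carry no molecular identifiers, so counts are not independent molecules.

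Genes were kept by edgeR's filterByExpr, libraries were scaled with TMM factors, and edgeR 4.0.16's quasi-likelihood test (R 4.3.3) was fitted to 13649 genes with all 16 libraries in 1 model of 4 group means, whose spread is shared between groups. P-values were Benjamini-Hochberg adjusted over all genes tested, with a threshold of 0.05, in 5 comparisons: KO against WT within each muscle state, CTX against normal muscle within each genotype, and their interaction, which is the genotype effect in CTX minus that in normal muscle. The code was tested on simulated data. Within-library ratios were compared with exact two-sided permutation tests. All 10 class I genes were named in every comparison. From each list the 2 rising and 2 falling genes of smallest p past the threshold in each CTX comparison could be named, as were Glud1, Psmb5, Psmb6, Psmb7, Psmb10, Ciita and Irf1, and 1 further gene named by this rule is not reported here. H2-T23, Stat2 and Ifng were added after their values had been seen. The members and lists were chosen with earlier results of these data known.

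Alternatives were DESeq2 1.42.0 and its size factors, limma 3.58.1 voom with quality weights and, added after seeing the data, without them, library totals without TMM, no filter and a filter of 5 CPM in 4 libraries, a fit on the compared libraries only, male libraries only, a replicate block, and leaving out each library in turn. Libraries of the same number deviated together in normal muscle (r = 0.644, 0.567 and 0.244 for numbers 2, 3 and 5, across genes, which are not independent). Some of unlike number did too, KO 5 with WT 6 (r = 0.588) and KO 1 with WT 2 (r = 0.467). The remaining unlike-numbered pairs had r of -0.596 to -0.07. The numbers were taken to pair KO and WT normal libraries, which these values do not settle. The pair numbered 5 is female in both, as is WT normal library 6. Of the table's symbols, 23384 matched a gene name of GENCODE M21, which gave positions and exon lengths.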

Additional observations from a re-analysis of the deposited data

Results flagged for a closer look

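Tap1 in WT normal library 6 stood apart from its group, at 180 CPM against 128 to 134 CPM in WT normal libraries 2, 3 and 5. Of the 40 gene and group combinations checked, 1 was flagged, and chance flags about 1 in 20 groups. This library is one of 3 with Xist expression, and it also had the highest H2-K1, Tap2 and Nlrc5 of its group. Over the 8 fits that leave out 1 library each, the log2 fold change of Tap1 in WT CTX against WT normal muscle was -1.05 to -0.65, past the threshold in each of them (adjusted p at most 0.0171, edgeR).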

How the results depend on the processing

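The response to CTX in WT was 2 genes up and 6 down. The up count was 0 with library totals, 1 with the 5 CPM filter, the compared libraries only, male libraries only, the replicate block or limma voom with quality weights (meant by voom unless stated), and 1 to 2 when 1 library was left out; Tapbp was the gene lost, and with library totals Erap1 too. The down count was 8 with library totals, where B2m (-0.766, adjusted p = 0.000261, edgeR) and Psmb8 (-0.562, adjusted p = 0.00654, edgeR) were called too. It was 2 without WT CTX libraries 1 and 2, which also leaves 2 libraries in that group, and 5 to 6 when 1 library was left out. In KO, 2 up and 1 down became 0 up and 7 down with library totals, 3 down with the 5 CPM filter or the compared libraries only, 2 down with DESeq2, and 2 to 3 up and 0 to 2 down when 1 library was left out. KO against WT in CTX muscle went from 0 to 3 with limma voom and quality weights, and was 0 with limma voom without them. Library totals moved the median of all genes in the CTX comparisons from -0.15 (WT) and -0.16 (KO) to -0.77, and the split of all calls from 4551 up and 5378 down to 1944 and 8349 in WT, and from 4549 and 5491 to 1920 and 8398 in KO. Some values turned their sign; the cause was not tested. For KO against WT in CTX muscle Erap1 was 0.0035 (RLE, DESeq2), 0.086 (totals), 0.015 (no filter), 0.006 (5 CPM), 0.02 (compared libraries; male), 3e-04 (replicate block), 0.018 (weighted voom), 0.00069 (unweighted voom) and -0.027 to 0.05 when 1 library was left out. For KO against WT in normal muscle B2m was 0.042 (totals) and 0.019 (male), Erap1 0.015 (totals) and 0.027 (voom), and under the replicate block Tapbp was -0.066, Psmb8 -0.057, Psmb9 -0.011 and Nlrc5 0.026. Leaving out 1 library gave B2m -0.155 to 0.047, Tap1 -0.043 to 0.184, Tap2 -0.021 to 0.053, Tapbp -0.02 to 0.091, Psmb8 -0.017 to 0.243, Psmb9 -0.017 to 0.275, Nlrc5 -0.243 to 0.132 and Erap1 -0.175 to 0.072 there. In the WT response B2m was 0.104 without WT CTX libraries 1 and 2, Tapbp -0.206 (totals), and Psmb8 -0.562 (totals), -0.109 (5 CPM), -0.075 (replicate block), -0.049 (voom) and -0.033 to 0.145 when 1 library was left out. In the KO response H2-D1 was 0.006 (no filter; replicate block), 0.026 (voom) and -0.113 to 0.032 when 1 library was left out, B2m -0.373 and Psmb8 -0.31 (totals), and Nlrc5 0.042 (male) and -0.218 to 0.04 when 1 library was left out. The difference of genotype effects for Erap1 was -0.009 (voom) and -0.052 to 0.195 when 1 library was left out. In normal muscle, where the replicate numbers were taken to pair the libraries, the block changed no call. Elsewhere they share only a number: same-numbered KO and WT libraries of CTX muscle had r = -0.124, -0.043, -0.058 and 0.005, those of CTX and normal muscle -0.057 to 0.068, and the block moved only WT H2-D1 (-0.242, adjusted p = 0.17, edgeR) and Tapbp (0.356, adjusted p = 0.136, edgeR) to the other side of the threshold. Each class I gene had at least 362 reads in every library, so the limits come from 4 libraries a group rather than from a count of 0.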
